A study of Mus musculus with 12 samples.

Results

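To follow the days on which reprogramming cells gained the surface carbohydrate SSEA-1, the SSEA-1+ cells of day 12 (D12S+) were compared with the Thy-1- cells of day 9 (D9T-). These are 2 of the 12 mRNA-Seq libraries of the series. A gene was kept where its level reached 1 FPKM (sequenced fragments scaled by transcript length and by the size of the library) in D9T- or D12S+, which left 12369 of 24098 genes. Just inside this limit was Tmem211, with 1.00 FPKM in D12S+, and just outside it was Tmlhe, with 0.99975 FPKM in D9T-.

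Both libraries came from mouse embryonic fibroblasts (MEFs) in which an IRES-EGFP cassette follows the coding sequence of Oct4, the Pou5f1 gene. The cells had been infected with pMXs retroviruses carrying the 4 factors c-Myc, Klf4, Sox2 and Oct4 and were kept, per the labels, in FF medium, a serum replacement medium with LIF, basic FGF, the GSK3 inhibitor CHIR99021 and ascorbic acid, with no feeder cells and no passage. D9T- had been sorted for loss of Thy-1, a fibroblast surface protein, and D12S+ for SSEA-1, so the change of day and the change of sorting marker cannot be told apart. The sorted fractions set beside them were D9T+ (Thy-1+, day 9), D12S- (SSEA-1-, day 12), D6T-, D6T+, D16S+ and D16S-, with unsorted cells of days 0 and 3 (D0, D3), and with established iPSCs and ES-D3 embryonic stem cells (mESCs) as end points. The labels give FF medium for both lines too, whereas the study's methods name other media for them and more than 1 medium for reprogramming.

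SSEA-1 is the Lewis x sugar, which fucosyltransferases build on glycans of the cell surface, and in the mouse it marks early embryo and pluripotent cells. Reprogramming fibroblasts first lose Thy-1 and take on epithelial traits, then gain SSEA-1, and switch on the endogenous pluripotency network late. That network is built around Oct4, Sox2 and Nanog, which bind many of each other's regulatory sequences. Each condition had 1 library, which leaves every difference below without a replicate check and without a test. In bulk RNA of this kind, fewer cells of a type and less RNA per cell cannot be told apart.

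The libraries were alike in scale. The total was 514938 FPKM in D9T- and 512175 FPKM in D12S+, and the steps between low values put the depth of D12S+ at 0.954 times that of D9T-. The upper end of the interval that the authors' software gave to each FPKM was, at the median, 2.14 times the value in both libraries, and no kept gene had intervals that lay apart. The day 9 fractions carried Thy1 RNA as their labels say, with 3.72 FPKM in D9T- and 491 FPKM in D9T+. SSEA-1 itself is a sugar and was not measured by these libraries. The 9 pluripotent cell markers, all of which reached 1 FPKM in D12S+, summed to 155, 2143 and 100.01 FPKM in D9T-, D12S+ and D12S-.

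Between D9T- and D12S+, 999 genes were at least 2-fold higher in D12S+ (8.08% of the genes kept) and 468 were at least 2-fold lower (3.78%), on the scale of log2(FPKM + 1) that is used for every difference below. At 4-fold the counts were 176 and 46. The median difference of all genes kept was -0.01. The largest positive differences were those of Dnmt3l and of pluripotency and early embryo genes, several of which were already present in D9T-. The largest negative ones included genes such as Hbb-y and Prkcb that had been high in D6T- and D9T-. The limit of 1 FPKM bears on such counts, since 717 genes were kept through D12S+ alone and could only come out higher, and 302 of the 999 were among them. The earlier step, D6T- to D9T-, had 717 genes higher and 161 lower, and the later step, D12S+ to D16S+, had 509 higher and 754 lower. These steps share a library with the comparison, and their counts stand here side by side only.

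**Figure D1:**
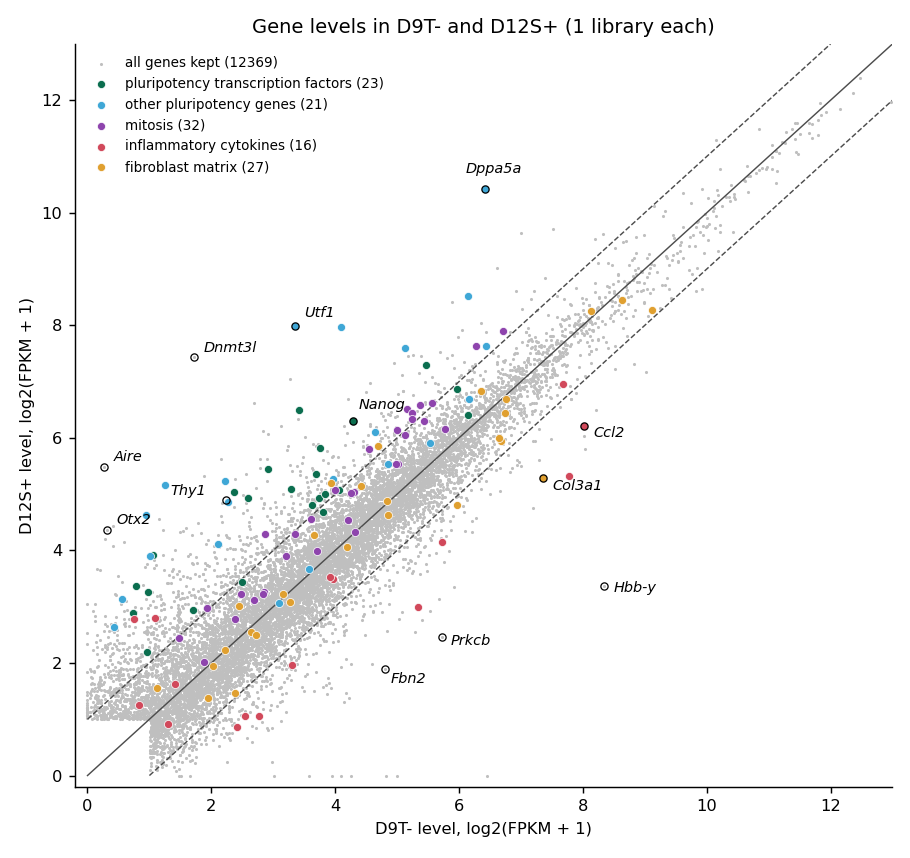
Level of each of the 12369 genes kept in D9T- (x axis) and D12S+ (y axis), both as log2(FPKM + 1), with 1 library each. The solid line marks equal levels and the dashed lines a 2-fold difference. Pluripotency genes lie above the upper dashed line for the most part, inflammatory cytokines lie mostly below the line of equal levels, and fibroblast matrix genes lie along it.

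D9T- and D12S+ chose the genes, and the other libraries played no part in the choice. The 999 higher genes had their median level at 1.29 in D0, 1.20 in D3 and 1.13 in D6T-, then at 1.90 in D9T- and 3.55 in D12S+. It was 3.78 in D16S+, 3.52 in iPSCs and 3.66 in mESCs, close to its level in D12S+, while it was 2.54 in D12S- and 2.80 in D16S-. The 468 lower genes followed another course, with a median level of 2.30 in D0, 3.01 in D3, 3.44 in D6T- and 3.76 in D9T-, then 2.25 in D12S+ and 1.61 in D16S+. In iPSCs and mESCs it was 1.08 and 1.14. In D3 and D6T-, which did not choose them, their median was thus higher than in the starting fibroblasts. The level in D9T- follows in part from the choice of genes.

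**Figure D2:**
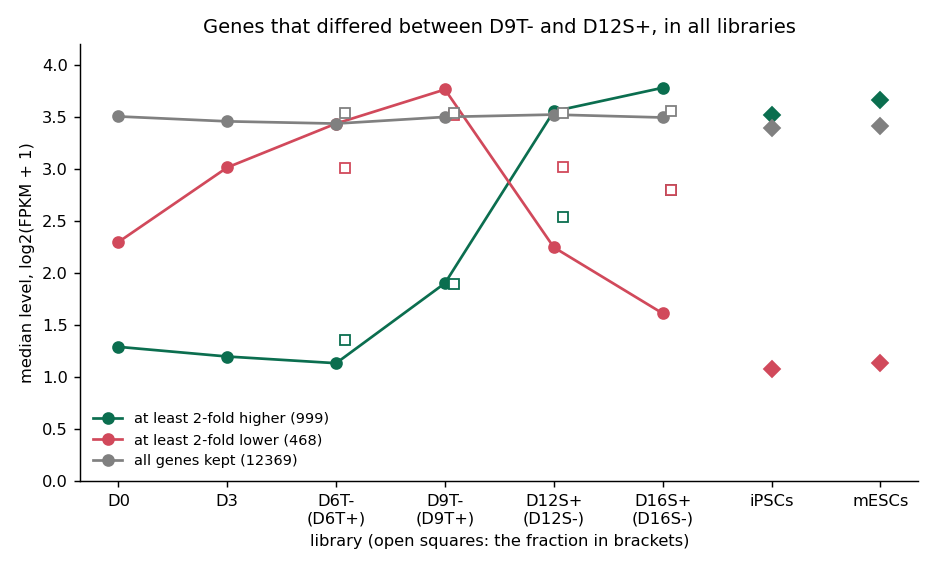
Median level, as log2(FPKM + 1), of the 999 genes at least 2-fold higher in D12S+, of the 468 at least 2-fold lower and of all 12369 genes kept, in each of the 12 libraries (1 library a point). Open squares are the T+ and S- fractions. D9T- and D12S+ chose the sets, so the jump between them follows from the choice of genes.

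The 12 genes with the largest positive difference were, in order, Dnmt3l, Aire, Utf1, Otx2, Dppa5a, Trap1a, Dppa4, Tuba3a, Tdgf1, Apoc1, Lin28a and Cyct, with differences from 5.71 down to 3.67. Every one of these 12 was at 1 FPKM or more in both iPSCs and mESCs. Dnmt3l, the catalytically inactive partner of the de novo DNA methyltransferases, had 4.36, 0.795, 0.456 and 2.30 FPKM in D0, D3, D6T- and D9T-, then 172 and 336 FPKM in D12S+ and D16S+, and 393 and 168 FPKM in iPSCs and mESCs. In the other fractions it was at 3.49 FPKM (D6T+), 3.59 FPKM (D9T+), 3.31 FPKM (D12S-) and 10.1 FPKM (D16S-), so it was high in the SSEA-1+ fractions and the end points and low in every other library.

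Aire, which drives the expression of tissue antigens in the thymus, had the next largest difference, from 0.209 FPKM to 43.8 FPKM. It is the neighbour of Dnmt3l. In the GENCODE M1 annotation of mm9 the protein-coding gene Dnmt3l lies on the plus strand of chromosome 10 (chr10:77504692-77526367) and Aire on the minus strand (chr10:77492767-77506355), so the 2 genes overlap head to head by 1664 bases. The deposited table gives both genes the same locus. The labels name a stranded kit and the study's methods another kit of the same maker, and whether the authors counted by strand is not stated, so reads in the overlap cannot be assigned with certainty to either gene. The balance of the 2 genes did differ between libraries: Aire was at 12.2 FPKM in iPSCs beside 393 FPKM of Dnmt3l, and at 58.7 FPKM in D16S+ beside 336 FPKM.

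The remaining genes of this group were of several kinds. Utf1, a chromatin protein of pluripotent cells, went from 9.22 FPKM to 254 FPKM, and Dppa5a, an RNA-binding protein of the early embryo, from 84.3 FPKM to 1365 FPKM, the highest level of the 12. Trap1a, an X-linked tumour rejection antigen, was at 5.45 and 97.1 FPKM, and shares its locus in the table with C330013F16Rik. Tuba3a, an alpha-tubulin known from testis, was at 0.217 and 17.4 FPKM, and Cyct, the testis cytochrome c, at 0.337 and 16.0 FPKM. Apoc1, a lipoprotein component, was at 8.64 and 131 FPKM. In D12S- the 12 genes lay between 0.363 FPKM (Otx2) and 39.5 FPKM (Dppa5a), far below their D12S+ levels.

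Of the pluripotency transcription factors, 19 of 23 were at least 2-fold higher in D12S+ and none was lower, against the background of 8.08% of all genes kept. Their median difference was 1.79, and in D12S- against D9T-, which shares the D9T- library, the median of the same genes was -0.38. Nanog, a homeodomain factor at the centre of the network (chr6:122657507-122664651, plus strand, mm9), had 0.0889, 0.119 and 0.735 FPKM in D0, D3 and D6T-, then 18.5, 78.2 and 192 FPKM in D9T-, D12S+ and D16S+. The end points held 143 FPKM (iPSCs) and 137 FPKM (mESCs). The fractions left behind held 0.30 FPKM (D6T+), 7.30 FPKM (D9T+), 9.48 FPKM (D12S-) and 8.99 FPKM (D16S-). Thus Nanog RNA was already present in D9T-, and its level in D12S- was about that of D9T+.

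The promoters of the network were looked at in RefSeq sequence (build GRCm38.p6, 250 bases before to 50 bases after an annotated start). Of 23 pluripotency transcription factors, 15 had a promoter in that table. The composite element that Oct4 and Sox2 bind together was searched on both strands as CATTGT, any base and ATGC. It was found for 18 of 27025 genes with a promoter (0.0666%), and Nanog was the only one of them among the 701 of 999 higher genes with a promoter. The Oct4 octamer ATGCAAAT was found for 1.97% of all genes and for 2 of the 15 factors, Zfp42 and Zfp296. It was found for 18 of the 701 higher genes with a promoter (2.57%) and for 18 of the 333 lower ones (5.41%). A match of letters is a description of the window and does not show binding. Both promoters are shown because they hold the sites of 2 of the introduced factors at genes that were high in D12S+. The first line is Nanog at chr6:122707239-122707538, plus strand, with the composite element, which is read on the opposite strand, in capitals from 72 bases before the start. The second is Zfp42 at chr8:43306960-43307259, minus strand, with the octamer, also on the opposite strand, in capitals from 186 bases before the start.
Nanog: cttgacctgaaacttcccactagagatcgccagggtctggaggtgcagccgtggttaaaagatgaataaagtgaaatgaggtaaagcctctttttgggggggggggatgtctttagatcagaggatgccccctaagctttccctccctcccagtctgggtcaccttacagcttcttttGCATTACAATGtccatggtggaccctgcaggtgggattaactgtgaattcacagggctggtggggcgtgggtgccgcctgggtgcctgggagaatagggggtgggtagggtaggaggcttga
Zfp42: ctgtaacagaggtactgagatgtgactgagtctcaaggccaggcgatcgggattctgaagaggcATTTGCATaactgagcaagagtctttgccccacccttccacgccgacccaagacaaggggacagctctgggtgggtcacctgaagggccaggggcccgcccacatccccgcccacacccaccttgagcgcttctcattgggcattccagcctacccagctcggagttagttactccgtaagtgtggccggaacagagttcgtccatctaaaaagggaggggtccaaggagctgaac

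The largest difference among these factors was that of Esrrb, an orphan nuclear receptor that sustains self-renewal, from 9.61 FPKM in D9T- to 89.5 FPKM in D12S+ (3.09), with 3.01 FPKM in D12S-. Zfp42, the Rex1 gene, a common marker of naive pluripotency, was at 1.07 and 14.1 FPKM (2.87) and went on to 54.2 FPKM in D16S+ and 173 FPKM in mESCs. Mycn was at 4.13 and 31.9 FPKM, Zscan10 at 6.58 and 42.9 FPKM, and Prdm14, a repressor that guards naive cells and germ cells, at 0.671 and 6.39 FPKM. Tcl1 was at 0.721 and 9.35 FPKM, and Nr5a2 at 0.940 and 3.60 FPKM. Some factors had been present by D6T-. Nr0b1 had 20.9, 11.4 and 27.1 FPKM in D6T-, D9T- and D12S+ (1.18), and Sall4 5.12, 12.0 and 40.0 FPKM (1.66). The 4 factors short of 2-fold were Tfcp2l1 (0.95), Etv5 (0.90), Klf5 (0.88) and Nacc1 (0.26).

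The transcripts of the introduced factors did not follow the network. Pou5f1 was at 2769 FPKM in D9T- and 2161 FPKM in D12S+ (-0.36), Sox2 at 258 and 230.4 FPKM (-0.16), Klf4 at 658 and 456 FPKM (-0.53) and Myc at 605 and 318 FPKM (-0.93). In D16S+ Klf4 was at 127 FPKM and Myc at 92.6 FPKM. None of the 4 passed 2-fold at this step (median -0.44). Retroviral and endogenous transcripts of these genes share one gene-level value, so the balance of the 2 sources is unknown.

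Other genes of pluripotent cells had the largest list median, 2.37, with 16 of 21 at least 2-fold higher in D12S+ and none lower. Their median in D12S- against D9T- was -0.39. Tdgf1, the Nodal co-receptor Cripto, was at 16.1, 250.3 and 19.2 FPKM in D9T-, D12S+ and D12S-. Lin28a, which blocks the maturation of let-7, was at 0.921, 23.9 and 1.24 FPKM, and Dppa4 at 1.37, 35 and 0.804 FPKM. Dppa3, a maternal factor that protects methylation marks, had 1.02 and 14.0 FPKM in the compared libraries and 85.0 FPKM in D16S+, above its 17.9 FPKM in iPSCs. Alpl, the alkaline phosphatase used to stain pluripotent colonies, was at 23.9 and 67.9 FPKM (1.47). The 5 short of 2-fold were Gdf3, L1td1, Jarid2, Jam2 and Fbxo15, and Fbxo15, an early reporter gene of reprogramming, was at 7.52 and 7.39 FPKM.

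**Figure D3:**
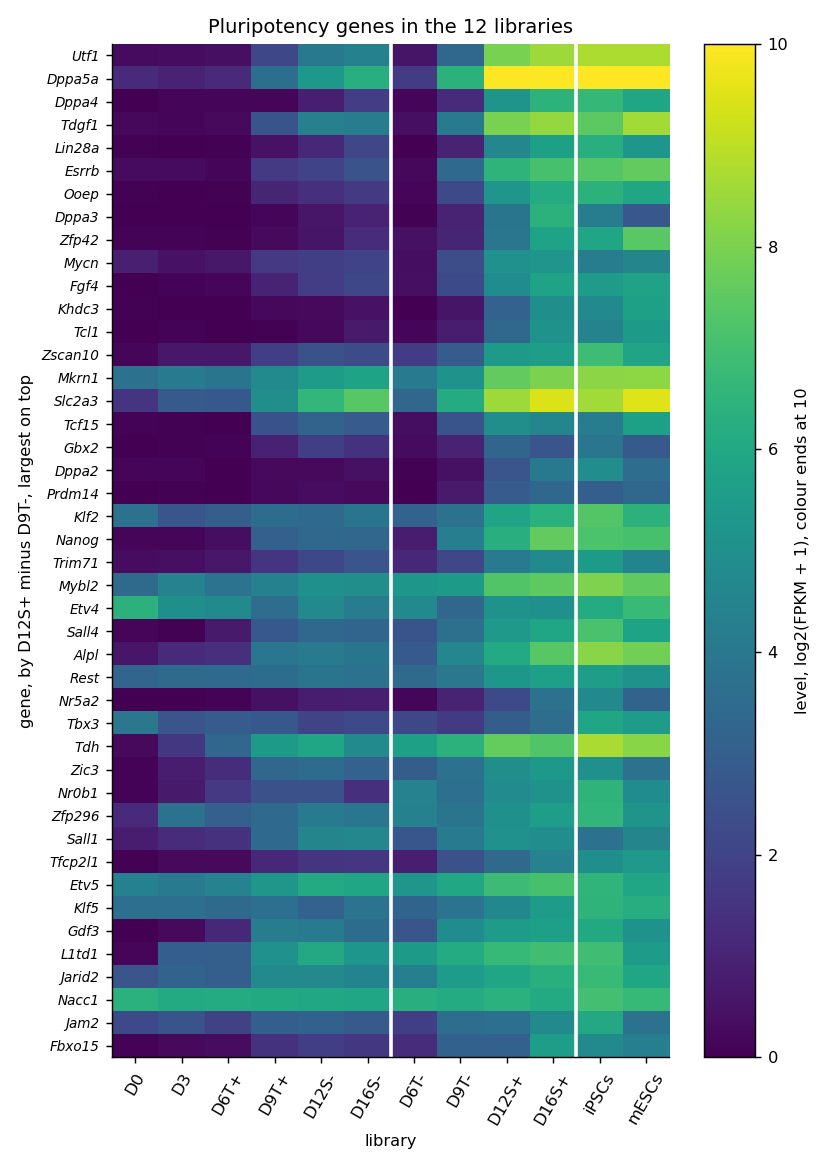
Level, as log2(FPKM + 1), of the 23 pluripotency transcription factors and 21 other pluripotency genes kept, in the 12 libraries, with 1 library a column. Columns run from D0, D3 and the T+ and S- fractions through the T- and S+ fractions to iPSCs and mESCs, and genes are ordered by D12S+ minus D9T-. The D12S+ column resembles D16S+ and the end points in most genes, while D12S- and D16S- are nearer to D9T-. The median level of the factors is 3.41 in D9T-, 5.01 in D12S+, 3.16 in D12S- and 2.86 in D16S-. That of the other genes is 3.57, 5.27, 3.86 and 3.53.

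Genes of the epiblast after implantation and of its neighbours were part of the same step. Of 27 early embryonic lineage factors, 14 were kept, 6 of them through D12S+ alone. Of the 8 that were at 1 FPKM or more in D9T-, 6 were at least 2-fold higher in D12S+, as were all 6 of the others, and the median was 1.86 over the 14 kept and 0.40 over all 27. Otx2, a homeodomain factor of the formative and primed epiblast, had 0.243, 19.6 and 31.3 FPKM in D9T-, D12S+ and D16S+, but only 1.81 and 2.11 FPKM in iPSCs and mESCs. Fgf5, a classical epiblast marker, was at 0.0748 FPKM in D9T-, 2.59 FPKM in D12S+, 3.36 FPKM in D16S+, 0.0559 and 0.0395 FPKM in iPSCs and mESCs. The same shape was seen in Lefty1 and Lefty2, the feedback inhibitors of Nodal. Lefty1 was at 8.91, 41.7, 115, 0.867 and 1.32 FPKM and Lefty2 at 2.57, 18.9, 51.6, 1.58 and 2.41 FPKM in these 5 libraries. Pou3f1 (Oct6) was at 0.500, 6.55, 7.35, 2.53 and 1.72 FPKM. Nodal and its partner Foxh1 were high at the end points too, with Nodal at 2.69, 39.3, 67.4 and 16.8 FPKM in D9T-, D12S+, iPSCs and mESCs. So D12S+ and D16S+ held RNAs of the primed epiblast that the established lines held at lower levels.

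Signals upstream of these genes were checked with a list of Wnt and Nodal genes, of which 11 of 20 kept were at least 2-fold higher and 1 was lower (median 1.20, and 0.67 over all 27). Besides Tdgf1, Nodal and the Lefty genes, the Wnt effectors Lef1 and Tcf7 were higher, Lef1 at 0.951 and 12.6 FPKM (2.80) and Tcf7 at 5.13 and 19.9 FPKM (1.77). Axin2, a direct Wnt target, was at 0.419 FPKM in D9T- and 2.36 FPKM in D12S+. Nkd1, a Wnt inhibitor and also a target, was the one lower gene, at 3.22 and 0.730 FPKM. In the FGF and MAPK feedback list 5 of 25 were higher and 1 lower (median 0.33). Fgf4, the main FGF ligand of pluripotent cells, was at 3.79 and 28.2 FPKM (2.60), whereas the feedback regulators Spry2, Spry4, Spred2 and Dusp6 differed by 0.14, -0.02, 0.01 and 0.33.

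Enzymes that write and remove DNA methylation differed in part. Of 14 genes, 3 were at least 2-fold higher and 1 was lower, with a median of 0.14. Beside Dnmt3l, the de novo enzyme Dnmt3b was at 4.92 FPKM in D9T- and 40.2 FPKM in D12S+ (2.80), with 3.07 FPKM in D12S-. The oxidase Tet1 was at 2.41 and 12.7 FPKM (2.00) and its relative Tet3, the form of the oocyte and of somatic cells, at 10.3 and 4.4 FPKM (-1.07), while Tet2 was at 9.19 and 9.42 FPKM. The maintenance enzyme Dnmt1 was at 79.4 and 94.7 FPKM (0.25). Germline genes that methylation keeps silent in somatic cells were mostly below the limit, since 10 of the 32 in the table were kept, 5 of them through D12S+ alone. Of the 5 at 1 FPKM or more in D9T-, 4 were at least 2-fold higher, as were 4 of the others, and the median was 1.44 over the 10 kept and 0.53 over all 32. Rpl10l, a testis ribosomal protein gene, was at 0.146 and 11.6 FPKM, Tex19.1 at 10.7 and 36.4 FPKM, and the X-linked homeobox genes Rhox6 and Rhox9 at 11.3 and 42.9 FPKM and at 6.15 and 26.1 FPKM. The Rhox genes were also present in D12S-, at 30.4 and 19 FPKM. Stra8, the meiotic gatekeeper, had 0.0324, 1.76 and 12.5 FPKM in D9T-, D12S+ and D16S+ and 138 FPKM in mESCs.

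Among Polycomb genes 4 of 32 were at least 2-fold higher and none was lower (median 0.33), a share near the background. They were Cbx7, the chromobox protein of pluripotent cells, at 8.48 and 56.6 FPKM (2.60), Phc1 at 39.9 and 141 FPKM, Phf19 at 2.01 and 9.36 FPKM, and Kdm2b at 10.1 and 22.1 FPKM. The catalytic subunit Ezh2 was at 11.6 and 16.9 FPKM (0.51). The genes of histone H3.3, the variant the study is about, and of its chaperones differed little, with 1 of 16 higher and a median of 0.14. H3f3a was at 142 and 120.3 FPKM (-0.24), H3f3b at 191 and 212 FPKM (0.15), and the chaperone Hira at 31.9 and 24.4 FPKM (-0.38). The one that passed was Nasp, a histone chaperone of dividing cells, at 42.8 and 98.2 FPKM (1.18). Of 20 imprinted genes kept, 6 were higher and 2 lower (median 0.30), H19 at 142 and 355 FPKM and Igf2 at 22.0 and 52.2 FPKM among the former. Of 20 genes of the 2-cell stage, 2 were kept, and Tcstv1 was listed at 0 in D9T- and at 1.30 FPKM in D12S+.

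Of 32 mitotic genes, 12 were at least 2-fold higher and none lower, against 8.08% and 3.78% of all genes kept, with a median of 0.89. In D12S- against D9T- the median of these genes was -0.23 and none passed 2-fold. Their median level was 4.54 in D0, 4.70 in D6T-, 4.28 in D9T- and 5.03 in D12S+, so D9T- was low beside D6T- as well. Mad2l1, a protein of the spindle checkpoint, was at 6.32, 18.5 and 5.08 FPKM in D9T-, D12S+ and D12S- (1.42). Cdc20, the activator of the anaphase-promoting complex, was at 76.7, 198 and 87.5 FPKM (1.36), and cyclin Ccnb2 at 34.7, 89.9 and 33.9 FPKM (1.35). Plk1, the Polo kinase, was at 36.7, 86.0 and 39.3 FPKM (1.21). Not every mitotic gene took part, and Mki67 was at 18.9 FPKM in D9T- and 19 FPKM in D12S+. For the S phase, 5 of 37 DNA replication genes were at least 2-fold higher and none lower (median 0.53), Pold1, Mcm3, Orc1, Mcm2 and Gins1, with Mcm3 at 53.2 and 118 FPKM. The median level of the replication genes was 5.17 in D6T-, 4.75 in D9T- and 5.29 in D12S+.

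Mitotic genes are known for the cell cycle homology region (CHR), a TTTGAA element near the start. It was found, on either strand, in the promoters of 20 of the 27 mitotic genes with one, against 20.2% of all genes with a promoter and 13.7% of the genes kept. It was in 10 of the 11 that were at least 2-fold higher and in 10 of the 16 others (90.9% and 62.5%). Over genes of all kinds the shares did not differ by direction. It was found for 117 of the 701 higher genes with a promoter (16.7%) and for 56 of the 333 lower ones (16.8%). For DNA replication genes the count was 4 of 29. The E2F element TTTCCCGC, in 1.24% of all genes, was in none of the mitotic promoters and in 6 of the 29 of replication. In each of the 80-base stretches below, the CHR is in capitals and begins within 30 bases of the start, which is what these genes share. They are Plk1 at chr7:122159405-122159484 (plus strand), Ccnb2 at chr9:70421511-70421590 (minus), Cdc20 at chr4:118437322-118437401 (minus) and Cdca8, a chromosomal passenger protein, at chr4:124936868-124936947 (minus), in the same build.
Plk1: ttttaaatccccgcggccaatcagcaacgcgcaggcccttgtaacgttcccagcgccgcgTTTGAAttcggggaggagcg
Ccnb2: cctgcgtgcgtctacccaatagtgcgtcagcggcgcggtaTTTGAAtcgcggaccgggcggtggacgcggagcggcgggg
Cdc20: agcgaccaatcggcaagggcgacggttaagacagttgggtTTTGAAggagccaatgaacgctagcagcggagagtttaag
Cdca8: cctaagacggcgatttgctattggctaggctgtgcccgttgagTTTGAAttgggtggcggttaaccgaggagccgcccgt

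On the list of CDK inhibitors and p53 targets, 2 of 21 genes were at least 2-fold higher, the inhibitors Cdkn1b and Cdkn1c (list median 0.46). The 1 lower gene was the cyclin Ccnd2, which is not a brake of the cycle, at 145 and 60.5 FPKM. Cdkn2a, the Ink4a and Arf locus, was at 163 FPKM in both libraries, and Cdkn1a (p21) at 507 and 338 FPKM (-0.58).

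Epithelial genes, which had appeared by day 9, were higher again in D12S+. Of 24 adhesion and junction genes, 13 were at least 2-fold higher and none was lower (median 1.21), against a median of 0.20 in D12S- against D9T-. Cdh1 (E-cadherin) was at 25.8, 85.8 and 17.8 FPKM in D9T-, D12S+ and D12S- (1.69). Epcam was at 55.2, 171 and 56.8 FPKM (1.62), and the tight junction genes Cldn6 and Tjp3 at 6.16, 69.0 and 22.1 FPKM and at 3.51, 27.8 and 3.88 FPKM. The desmosomal gene Dsp was at 55.6 and 53.8 FPKM. Of 13 epithelial regulators 7 were higher, among them Grhl2, Esrp1 and Ovol2, and 1, Ehf, was lower (median 1.11). Of 6 simple keratins, 3 were at least 2-fold higher in D12S+ (median 1.39) and 5 in D12S- (median 1.23), both against D9T-. Of all 12369 genes kept, 999 and 501 were as much higher in D12S+ and D12S-. Krt18 was at 40.8, 175 and 132 FPKM in D9T-, D12S+ and D12S-.

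Genes of keratinocytes had another pattern. Of 16 epidermal differentiation genes kept, 3 were higher and 1 lower, and the median was -0.05. Slurp1 was at 102, 89.9 and 13.7 FPKM in D9T-, D12S+ and D16S+, and was listed at 0 in iPSCs and mESCs. Aldh3a1 was at 682, 356 and 79.6 FPKM in D9T-, D12S+ and D16S+, and Adh7, the lower one, at 127, 44.1 and 13.4 FPKM. The 3 higher ones were Ly6d at 6.24, 27.3 and 10.3 FPKM, Sfn at 66.9, 163 and 176 FPKM and Sprr1a at 9.85, 24.5 and 16.1 FPKM in the same libraries. From D12S+ to D16S+, 8 of the 16 were at least 2-fold lower and none was as much higher. Of the 12463 genes at 1 FPKM or more in either of these libraries, 754 were lower and 509 higher.

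Fibroblast matrix genes as a list showed almost no net difference. Of 27 fibroblast matrix genes 2 were at least 2-fold higher and 2 lower, and the median was -0.09. In D12S- against D9T- the median was 1.05, and in D12S+ against D12S-, which shares both day 12 libraries with the values above, it was -1.16. Col1a1 was at 81.1, 113 and 298 FPKM in D9T-, D12S+ and D12S-, beside 752 FPKM in D9T+ and 3453 FPKM in D0. Col3a1 differed the other way, at 164, 37.9 and 101 FPKM (-2.08), as did Fbn1 at 61.5, 27.1 and 75.8 FPKM (-1.15), while Tnc and Fbln2 were higher (differences of 1.27 and 1.15). Of 17 mesenchymal transcription factors none was higher and 4 were lower, against 3.78% lower of all genes kept (median -0.29). The 4 were Foxd1 at 72.6 and 22.1 FPKM (-1.67), Tbx15, Meox2 and Zeb2. With the limit at 5 FPKM in place of 1 FPKM, the median of this list was -0.86. Twist1, an inducer of the mesenchymal state, was at 9.40 and 4.72 FPKM (-0.86), and Snai1 at 4.70 and 8.80 FPKM (0.78). Among 21 contractile and mesenchymal surface genes 2 were higher and 4 lower (median 0.02), Actg2 at 50.0 and 7.79 FPKM being the largest of the latter (-2.54).

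Thy1 itself was higher in D12S+ than in D9T-, at 28.7 against 3.72 FPKM (2.65). The unsorted cells held 669 FPKM (D0) and 123 FPKM (D3), D6T- 3.24 FPKM, D16S+ 3.73 FPKM, and the end points 3.15 FPKM (iPSCs) and 9.00 FPKM (mESCs). In the other fractions it was at 477 FPKM (D6T+), 491 FPKM (D9T+), 75.7 FPKM (D12S-) and 44.8 FPKM (D16S-). D9T- had been sorted against Thy-1 and D12S+ had not. The 10 fibroblast markers summed to 379 FPKM in D9T- and 259.9 FPKM in D12S+, against 2268 FPKM in D9T+ and 707 FPKM in D12S-. Their median level did not fall, at 2.88 in D9T- and 3.00 in D12S+. Col3a1 alone, at 164 and 37.9 FPKM in these, weighed heavily in the sums. Whether cells with fibroblast RNA remained in D12S+ was not tested.

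**Figure D4:**
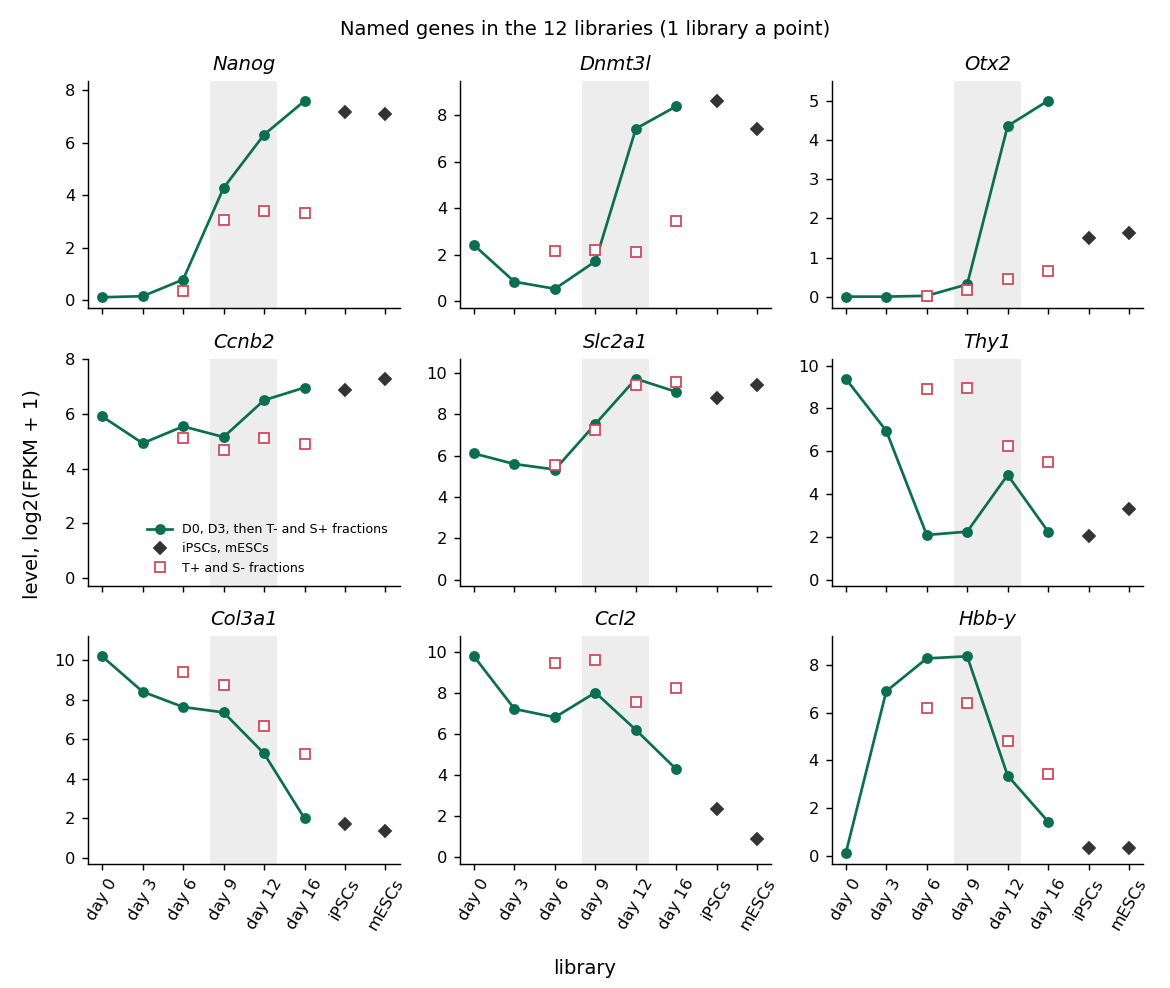
Level, as log2(FPKM + 1), of 9 named genes in the 12 libraries, with 1 library a point. Filled circles joined by a line are D0, D3 and the T- and S+ fractions, open squares the T+ and S- fractions, diamonds iPSCs and mESCs, and the grey band holds days 9 and 12. Otx2 is high in D12S+ and D16S+ and low in iPSCs and mESCs, Slc2a1 is high in both D12S+ and D12S-, and Hbb-y is highest in D6T- and D9T-.

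The 12 genes with the largest negative difference were Hbb-y, Prkcb, Fbn2, Egr3, Tox3, Arhgap36, Fmo1, Sfrp4, Akr1c18, Tnfaip3, Atf3 and Ccl8, with differences from -4.98 to -2.57. Hbb-y, an embryonic beta-globin, had 0.0996, 117, 305 and 324 FPKM in D0, D3, D6T- and D9T-, then 9.33 and 1.74 FPKM in D12S+ and D16S+, and 0.273 and 0.290 FPKM in iPSCs and mESCs. The T+ and S- fractions held 72.1 FPKM (D6T+), 82.9 FPKM (D9T+), 27.1 FPKM (D12S-) and 9.93 FPKM (D16S-). In a list of 12 embryonic globin and erythroid genes, written after values were seen, 11 were in the table and Hbb-y alone was kept, and the erythroid factor Gata1 was at 0.433 and 0.781 FPKM. Per the study's methods, reads that match more than 1 locus had been removed. Reads common to near-identical globin genes would be among them, so the value of Hbb-y is uncertain to that extent. Prkcb, a protein kinase C, had levels of 2.14, 49.9, 51.7 and 4.53 FPKM in D0, D6T-, D9T- and D12S+. Fmo1, a flavin monooxygenase, had 0.169, 21.0, 37.9 and 4.85 FPKM in these, and Arhgap36, an activator of Hedgehog signalling, was listed at 0 in D0 and was at 6.88 FPKM in D9T- and 0.183 FPKM in D12S+. In D12S-, set beside the same D9T- library, these 4 were at 27.1, 12.0, 15.4 and 0.517 FPKM. Of the other 8, Fbn2 was at 26.8 FPKM in D9T- and 8.84 FPKM in D12S-, Egr3 at 17.6 and 2.27 FPKM, Tox3 at 16.6 and 5.08 FPKM and Sfrp4 at 17.1 and 3.94 FPKM. Akr1c18 was at 41.2 and 18.6 FPKM, Tnfaip3 at 23.3 and 5.75 FPKM, Atf3 at 45.2 and 6.21 FPKM and Ccl8 at 59.5 and 24.2 FPKM. The 12 had no common course before day 9, since Ccl8 had 202 FPKM in D0 and 11.7 FPKM in D6T-, and Tnfaip3 1.34 FPKM in D6T-.

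Egr3, Atf3 and Tnfaip3 belong to genes that serum and stress induce quickly. A list of 24 such immediate early genes, written after these values were seen, had none at least 2-fold higher and 8 of 22 lower, against 3.78% lower of all genes kept. Its median was -0.60 in D12S+ and -0.48 in D12S- against D9T-. As the falls were known when the list was written, its count and medians follow in part from the choice of genes and are no separate support. Nr4a1, an orphan receptor induced by many stimuli, had 43.0 FPKM in D6T-, then 262 and 748 FPKM in D9T- and D9T+ and 55.1 and 79.1 FPKM in D12S+ and D12S-, so both day 9 fractions were high and both day 12 fractions low. Atf3 was at 45.2 and 43.4 FPKM in the day 9 fractions D9T- and D9T+ and at 6.58 and 6.21 FPKM in D12S+ and D12S-. Fos did not follow them, at 149.6 and 189.7 FPKM (0.34).

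Inflammatory cytokines had the lowest median of the lists with more than 1 gene kept, -1.04, with 8 of 16 at least 2-fold lower and 2 higher, against the background of 3.78% lower. The median over all 20 was -0.43. Ccl7 was at 218, 38.9 and 105 FPKM in D9T-, D12S+ and D12S- (-2.46). Ccl2, which attracts monocytes, had 259.6, 73.0 and 187 FPKM in these (-1.82), beside 786 FPKM in D9T+ and 882 FPKM in D0. Cxcl1 was at 39.4, 7.0 and 21.0 FPKM (-2.33) and Il6 at 5.83, 1.09 and 3.94 FPKM (-1.71). The 2 higher genes were Nos2, at 0.678 and 5.90 FPKM, and Il11, at 1.12 and 5.93 FPKM. Interferon response genes differed from the cytokines, as 2 of 31 were higher and none lower in D12S+ (median 0.07), and none of 15 antigen processing genes passed 2-fold (median 0.30). In D12S- the medians of these lists were 0.79 and 1.02. The class I gene H2-K1 was at 137, 169 and 339 FPKM in D9T-, D12S+ and D12S-.

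Some differences were common to both fractions of day 12. Of 18 glycolysis genes 6 were at least 2-fold higher in D12S+ and none lower, with medians of 0.72 in D12S+ and 0.76 in D12S- against the one D9T- library. The glucose transporter Slc2a1 was at 183, 835 and 685 FPKM in D9T-, D12S+ and D12S-. A list of 20 genes induced by low oxygen, written after values were seen, had 13 at least 2-fold higher and none lower, with medians of 1.26 in D12S+ and 1.44 in D12S-. Ankrd37 was at 3.44, 48.4 and 35.7 FPKM, the prolyl hydroxylase Egln3 at 32.7, 138 and 178 FPKM, and Car9, a carbonic anhydrase used as a hypoxia marker, at 2.17, 14.3 and 32.3 FPKM in D9T-, D12S+ and D12S-. In iPSCs and mESCs Egln3 was at 3.00 and 10.8 FPKM. Targets of the stress factor Atf4, a list also written later, had 5 of 23 lower and none higher, with medians of -0.60 in D12S+ and -0.83 in D12S-. The part of oxygen supply in these values was not tested. The hypoxia and Atf4 lists were written with values known, so their counts and medians follow in part from the choice of genes.

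**Figure D5:**
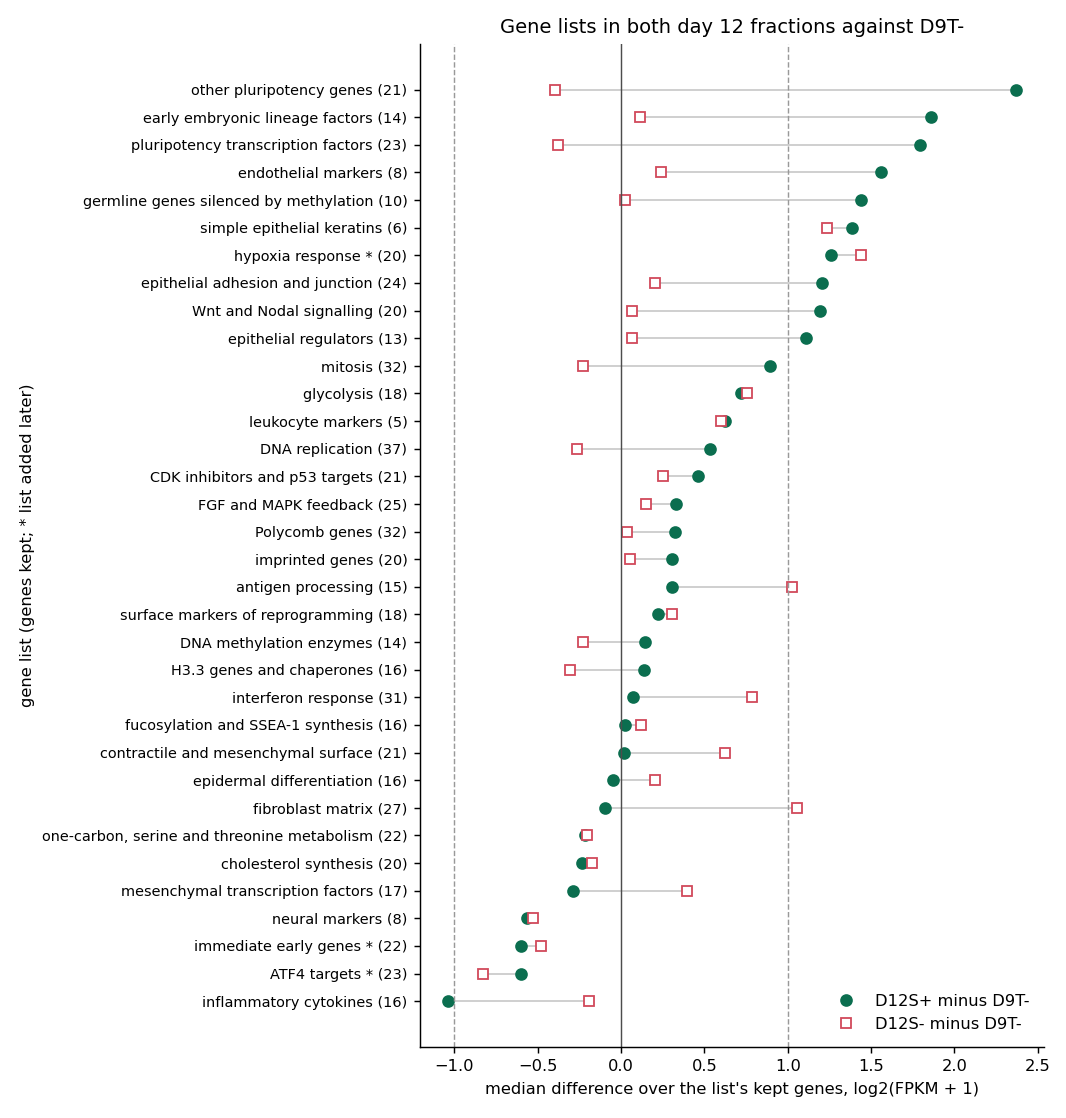
Median difference over the kept genes of each list, on the log2(FPKM + 1) scale, for D12S+ minus D9T- (filled circles) and D12S- minus D9T- (open squares). Both share the D9T- library. Pluripotency, lineage and mitosis lists lie to the right for D12S+, hypoxia, glycolysis and simple keratins for both, and fibroblast matrix and antigen processing for D12S-.

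Metabolic genes linked to pluripotency differed one by one. In one-carbon, serine and threonine metabolism 3 of 22 were higher and 3 lower (median -0.22). The glycine cleavage genes Amt and Gldc were at 5.86 and 43.2 FPKM (2.69) and at 5.47 and 17.8 FPKM (1.54), and the threonine dehydrogenase Tdh at 85.2 and 198 FPKM (1.21). The 3 lower genes were Psat1, Mthfd2 and Mat2a, at 149 and 60.6, at 51.2 and 22.1, and at 66.8 and 24.8 FPKM. They were low in D12S- as well, at 66.5, 15.9 and 24.3 FPKM.

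The enzymes of SSEA-1 synthesis themselves showed little. Of 22 genes of fucosylation and Lewis x synthesis 16 were kept, 1 was at least 2-fold higher and none lower, with a median of 0.02. The higher one was B3gnt7, which adds N-acetylglucosamine to growing lactosamine chains, at 13, 47.5 and 11.6 FPKM in D9T-, D12S+ and D12S- (1.79). In D16S+, iPSCs and mESCs it was at 70.5, 73.4 and 40.6 FPKM. The fucosyltransferases that make the epitope were under the limit of 1 FPKM. Fut9, the main one of mouse embryonic cells, was at 0.0460 FPKM in D9T-, 0.249 FPKM in D12S+, 0.0216 FPKM in D12S- and 0.127 FPKM in mESCs, and Fut4 at 0.191, 0.514, 0.644 and 0.808 FPKM. No difference in the fucosyltransferases could be read at these levels.

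Among 18 surface markers of reprogramming kept, 4 were higher and 4 lower (median 0.22). Apart from Thy1, Epcam and Alpl, the higher one was Pecam1, at 1.16 FPKM in D9T-, 12.3 FPKM in D12S+, 1.30 FPKM in D12S- and 61.1 FPKM in mESCs. The lower ones were Cd47, Cd34, Cd24a and Cd44, with Cd44 at 62.0 and 30.2 FPKM (-1.01). Markers of other cell types were followed in the same way. Of the 5 fixed endothelial markers Emcn was listed at 0 in D12S+ and the 5 summed to 17.6 FPKM in D9T- and 10.5 FPKM in D12S+. Their median level differed the other way, at 0.36 and 0.99, and 1 and 2 of the 5 reached 1 FPKM. On the longer endothelial list 6 of 8 kept were higher and 1, Tek, was lower, 3 of the 6 having been kept through D12S+ alone. Pecam1 and Egfl7 were among the 6, and both were also high in mESCs (61.1 and 58.5 FPKM). Of leukocyte markers, Lyz2 and Tyrobp were listed at 0 in D12S+, and the 7 summed to 62.9 FPKM in D9T- and 103 FPKM in D12S+, most of it Cd68 at 28.0 and 63.5 FPKM and Laptm5. On the leukocyte list 2 of 5 kept were higher, on the mast cell list 1 gene was kept and did not pass, on the skeletal muscle list 2 of 4 kept were higher and 1 lower, on the neural list none of 8 was higher and 1 lower, and none of 5 sex chromosome transcripts kept passed.

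In all, 460 genes were first seen at this step, meaning that they were under 1 FPKM in D0, D3, D6T- and D9T- and at 1 FPKM or more in D12S+. The 5 with the largest difference were Aire, Otx2, Tuba3a, Lin28a and Cyct. Of the 460, 404 (87.8%) were also at 1 FPKM or more in D16S+, 294 (63.9%) in iPSCs and 331 (72.0%) in mESCs. In fractions that did not carry the marker the counts were 117 (25.4%) in D12S- and 166 (36.1%) in D16S-, and on earlier days 33 (7.17%) in D9T+ and 9 (1.96%) in D6T+. Of all 24098 genes, 11888 were at 1 FPKM or more in D16S+, 11359 in iPSCs and 11423 in mESCs. In D12S-, D16S-, D9T+ and D6T+ these counts were 11794, 11858, 11753 and 11464. Most genes first seen in D12S+ were thus seen again in D16S+ and at the end points, none of which had been used to choose them. No other set of genes with levels as low was set beside them, so whether this is particular to the 460 was not tested.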

How the data were processed

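Libraries of 12 conditions were made from polyA RNA, 1 per condition. Reads were mapped to mm9 with STAR and gene levels estimated with Cuffdiff, as the submitters' processing notes and the study's methods state. Per the study's methods, reads with more than 2 mismatches or with several mapped loci had been removed. Tool versions and the gene annotation are not given in the sources used here. The deposited FPKM of 24098 genes and the interval ends the authors gave were used, and 12 columns of status words were not. Absolute depth is unknown. Relative depth was read from the most common ratio of values under 0.1 FPKM.

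Differences were taken as log2(FPKM + 1), with a pseudocount of 1, which understates low genes, for genes of at least 1 FPKM in either library. Called means at least 2-fold, with no test. List medians in other comparisons cover the same kept genes. Named by rank were the 12 largest rises and 12 largest falls among genes of at least 5 FPKM with a locus of at least 500 bases, and the 5 largest rises among genes first seen in D12S+, without small RNA, ribosomal protein, predicted and pseudogene symbols and without the 4 introduced factors. Other genes named belong to 36 lists or to 4 lists added after values were seen. The result of 1 list is not reported here. The members and lists were chosen with earlier results of these data known. Gene positions are from GENCODE M1 (mm9), 1-based, and promoters from RefSeq (GRCm38.p6). Python 3.11.15, numpy 2.4.6 and pandas 2.3.3 were used, and the fold counts and depth steps were tested on simulated data.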

Additional observations from a re-analysis of the deposited data

How the results depend on the processing

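Each condition had 1 library, so no replicate could be left out. No paired analysis was possible because no condition had a second library and no result came from a test. A pseudocount of 0.1 gave 812 lower genes in place of 468, and it raised the higher ones from 999 to 1434. With a fold threshold of 4 the counts were 176 higher and 46 lower. The median of the germline genes was 0.53 in place of 1.44 with no filter on low values, since 32 genes then entered in place of 10. The medians of the other 6 lists followed here moved by less than 1.5-fold under the 5 alternatives (pseudocount, stricter or no filter, equal totals, median of ratios). That of the mesenchymal transcription factors came near this limit. It was -0.86 with the filter at 5 FPKM and -0.05 with no filter, in place of -0.29. Among the genes named by rank, 7 moved by at least 1.5-fold with the pseudocount of 0.1, to 7.15 (Aire), 5.85 (Otx2), 5.79 (Tuba3a), 5.20 (Cyct), 4.57 (Dppa4), 4.56 (Lin28a) and -4.62 (Arhgap36). Of 203 list or ranked genes past 2-fold, none turned in sign under these alternatives, and 2 dropped under 2-fold with the median of ratios. Depth limits genes near 1 FPKM most.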
